A study of Mus musculus with 6 samples.

Results

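Nuclear genes for the subunits of oxidative phosphorylation were compared between B16-F1 melanoma tumours grown in mice without Stat2 and in WT mice. The genes were taken by symbol, as every gene beginning Ndufa, Ndufb, Ndufc, Ndufs, Ndufv, Uqcr, Cox4i, Cox5, Cox6, Cox7, Cox8 or Atp5, together with Sdha, Sdhb, Sdhc and Sdhd. This gave 89 genes with a probe set of their own among the 22180 genes measured. They comprised 32 genes of complex I, 8 complex I assembly factors whose symbols begin Ndufaf, 4 genes of complex II, 7 of complex III, 19 of complex IV, 17 of complex V and 2 pseudogenes (Uqcrh-ps1 and Atp5c1-ps). Ndufa4 and Ndufa4l2 were counted with complex IV, where the Ndufa4 protein resides. Another 9 symbols (Cox6c, Ndufb2, Ndufb4, Ndufb4b, Ndufb4c, Ndufs5-ps, Ndufs6, Ndufs6b and Uqcr10) appeared only on probe sets shared with other genes and were not given values. Ndufb1 was not analysed here, nor were the subunits encoded by mitochondrial DNA.

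B16-F1 is a pigmented mouse melanoma line of C57BL6 origin, and both host groups had the C57BL6 background. The cells were implanted in the flank of Stat2 KO or WT mice, and 3 tumours of each host genotype were taken at day 20, frozen and measured on 1 Affymetrix array each. The genotype belongs to the host, and no label gives the implanted cells a Stat2 change. Whether each tumour had a separate mouse is not labelled, so the tests weigh only the tumour-to-tumour spread, part of which may be technical. Ages and sexes of the hosts were not stated. Tumours of the Stat2 KO hosts were larger, per the series' design text, so host genotype and tumour size cannot be told apart here.

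Oxidative phosphorylation takes place in the inner mitochondrial membrane. Complexes I and II pass electrons from NADH and succinate to ubiquinone, complex III passes them to cytochrome c, and complex IV passes them to oxygen; complexes I, III and IV pump protons, and complex V, the ATP synthase, uses the gradient to make ATP. Most subunits are encoded in the nucleus, and the transcription factors NRF1, GABP (of the ETS family) and YY1 are known regulators of many of these genes. Melanoma cells use both glycolysis and respiration, and STAT2, which the KO hosts lacked, carries the type I interferon signal to target genes.

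Promoters were searched for the letters that these factors bind. These promoters (250 bases before to 50 after the start, RefSeq, GRCm38.p6) were found for 72 of the 89 genes, 77 promoters in all, and were read on both strands for GCGCATG (NRF1), CCGGAAG (ETS) and AAGATGGC (YY1). GCGCATG stood in the promoters of 15 of the 72 genes, or 20.8%, against 4.41% of all 27025 genes with a promoter and 5.40% of the 17492 coding ones. CCGGAAG stood in 19 genes, or 26.4%, against 9.93% of all genes and 12.9% of coding genes. AAGATGGC stood in 10, or 13.9%, against 3.19% of all genes and 3.57% of coding genes. In all, 35 genes had at least 1 of these letter runs, 9 had more than 1 kind, and 37 had none. The first motif can match both strands at overlapping positions, and each gene was counted once. A stretch from 100 to 31 bases before the start is printed for 1 gene of each complex, to show the motifs where they lie; capitals mark the matched letters, and each reads 5′ to 3′ on the gene's strand. Ndufa6 lies at chr15:82354322-82354391 (minus strand), Sdhd at chr9:50603880-50603949 (minus), Uqcr11 at chr10:80406852-80406921 (minus), Cox5b at chr1:36691387-36691456 (plus) and Atp5j at chr16:84835007-84835076 (minus). Ndufa6 and Cox5b carry the NRF1 letters, Sdhd and Uqcr11 the ETS letters, and Atp5j both the YY1 and the ETS letters.
Ndufa6: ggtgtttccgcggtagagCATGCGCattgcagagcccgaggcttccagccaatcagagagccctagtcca
Sdhd: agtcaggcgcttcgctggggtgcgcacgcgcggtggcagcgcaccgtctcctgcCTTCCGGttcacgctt
Uqcr11: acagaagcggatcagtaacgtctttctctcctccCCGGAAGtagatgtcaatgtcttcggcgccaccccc
Cox5b: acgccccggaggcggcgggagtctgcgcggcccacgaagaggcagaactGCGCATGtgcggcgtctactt
Atp5j: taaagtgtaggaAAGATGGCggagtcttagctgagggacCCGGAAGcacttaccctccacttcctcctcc

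These shares describe the letters only. Genes with the NRF1 letters had a median log2 difference between hosts (Stat2 KO minus WT) of -0.025, against -0.039 for the 57 promoter-matched genes without them. For the ETS letters the medians were 0.0087 with and -0.046 without, and for the YY1 letters -0.052 with and -0.026 without.

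Across the 6 arrays, correlations between pairs ran from 0.964 to 0.986 over genes, and 0 pairs held identical values. The number of arrays limits the precision. The Stat2 probe set averaged 6.42 ± 0.077 (log2, SD, n = 3) in tumours of Stat2 KO hosts against 6.73 ± 0.053 in the WT group. The groups did not overlap, but the difference of -0.31 did not pass (limma unadjusted p = 0.030, limma adjusted p = 0.532). All 12 melanocyte markers read above the 95th percentile of 1088 olfactory receptor genes (6.73), a set taken as a guide to dim signal. The mean Stat2 level over the 6 arrays, 6.58, lies below that percentile.

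None of the oxidative phosphorylation genes differed between hosts after adjustment over all genes. With limma, 0 of the 89 had an adjusted p under 0.05, and the smallest was 0.462; over all genes 2 of 22180 passed, or 0.00902%. At an unadjusted p under 0.05 there were 4 of 89 (4.49%), against 8.82% of all genes and 7.50% of equally bright genes, which were the 500 other genes nearest to each member in mean level. All 4 read lower in Stat2 KO hosts (Atp5d, Ndufa12, Ndufaf2 and Ndufb8), and 3.48% of all genes met that threshold on the lower side. That share is not matched for level, and the equally bright genes leaned lower, with a median difference of -0.095. Groups did not overlap for 11 genes, or 12.4%, against 13.3% of all genes. Of these, 10 were lower in Stat2 KO hosts, against 5.11% of all genes, and 1, Cox8b, was higher, against 8.23%. Among the equally bright genes, 7.08% were lower without overlap and 3.78% higher, so the members' 11.2% on the lower side is to be read against the first of these.

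The genes were bright as a set: 76 of the 89 lay above the median gene (6.33, log2), and 37 lay among the brightest 2218 genes when all genes were cut into 10 equal steps of level. On these arrays the median difference of all genes moved with level, from 0.12 in step 3 to -0.12 in step 9 and -0.095 in the brightest step. The median of the 89 genes was -0.041, with 53 lower and 36 higher (59.6% lower), while the equally bright genes had a median of -0.095 and were 65.5% lower; over all genes the median was 0.021, with 46.0% lower. Member by member, 32 lay below and 57 above the median of their equally bright genes, and the median gap was 0.053. The sign of the members' own median depended on the scaling, since it was 0.038 once the arrays were quantile normalized again and 0.050 once cyclic loess was applied, with 37 and 34 genes lower.

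**Figure D1:**
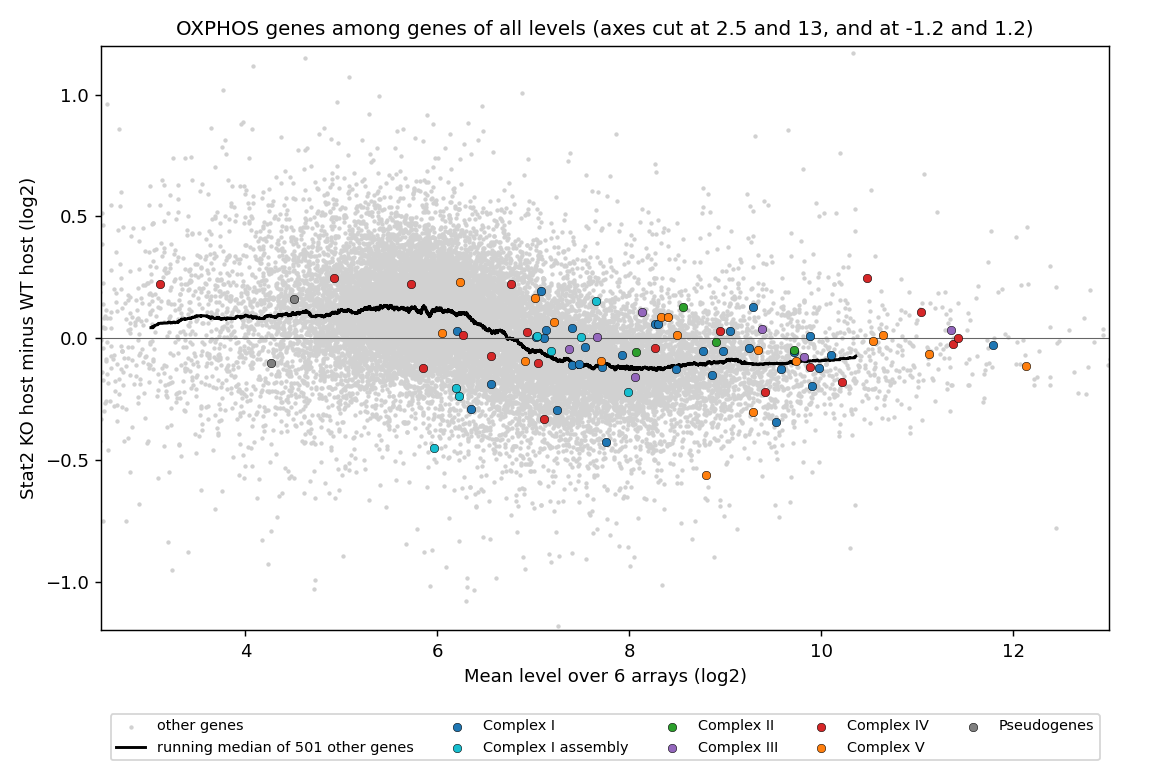
Log2 difference (Stat2 KO host minus WT host, vertical axis) against mean log2 level over the 6 arrays (horizontal axis); grey points are other genes, coloured points the 89 oxidative phosphorylation genes by complex, and the black line is the running median of other genes. The line lies above 0 among dim genes and below 0 among bright ones, and 57 of the 89 coloured points lie above the median of equally bright genes; on the deposited scale the members' median is -0.041, and it turns to 0.038 and 0.050 after quantile and loess scaling.

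The size of a difference in probe signal that these tumours could still hide was limited. The 95% interval of the difference lay within ±1 log2 unit, a 2-fold change either way, for 89 of 89 genes, and within ±0.5 log2 units, or 1.41-fold, for 64 of 89. Standard errors ran from 0.125 to 0.354, with a median of 0.144. The lowest bound was -0.94, for Atp5d, and the highest 0.74, for Cox7b2. Mean levels of 16 of the 89 genes lay below the 95th percentile of the olfactory receptor genes, and 4 lay below the median, Cox7b2 among them. For such dim genes the interval need not bound the change in transcript.

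**Figure D2:**
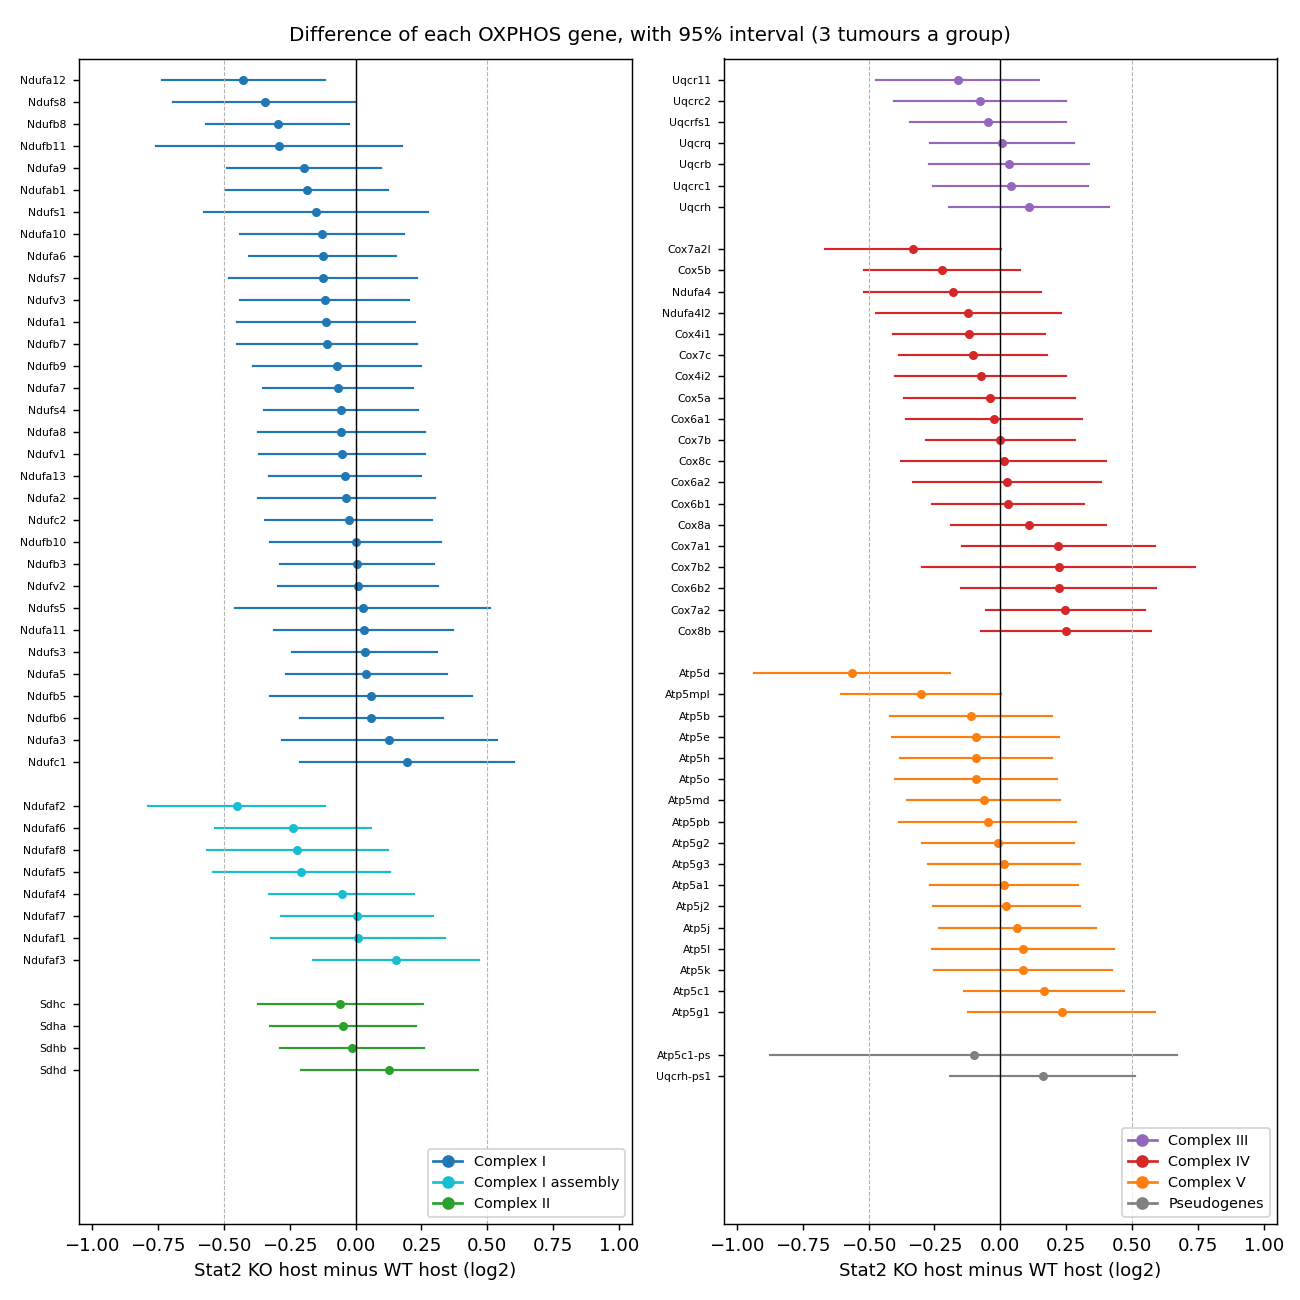
Log2 difference (Stat2 KO host minus WT host, horizontal axis) of each of the 89 genes, ordered within its complex, with its 95% interval from limma (n = 3 tumours a group); dashed lines mark ±0.5. All intervals stay within ±1, and the intervals of Atp5d, Ndufa12, Ndufaf2 and Ndufb8 lie below 0 without adjustment for the number of genes.

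Complex I, the NADH dehydrogenase, had 22 genes lower and 10 higher, with a median of -0.055 on the deposited scale (0.017 after quantile and 0.032 after loess scaling) and differences from -0.43 to 0.19. Without replicate 1 of the Stat2 KO hosts the median was -0.14. Against equally bright genes, 13 of the 32 lay below and the median gap was 0.046. Among its catalytic subunits, Ndufv1, which binds NADH and the flavin, read 9.16, 8.83 and 8.85 in the 3 Stat2 KO hosts and 8.90, 9.13 and 8.97 in the WT hosts, a difference of -0.051 with groups that overlap. Ndufs1, the large iron-sulphur subunit that takes electrons on from the flavin side, read 8.79, 8.46 and 9.10 against 9.30, 8.82 and 8.68, a difference of -0.15 with overlapping groups. Ndufs8, an iron-sulphur subunit near the ubiquinone site, read 9.55, 9.05 and 9.48 against 9.67, 9.84 and 9.60, a difference of -0.34 (SE 0.160, limma adjusted p = 0.568), and its groups did not overlap. Replicate 2 of the Stat2 KO hosts was the lowest tumour for Ndufs1, Ndufv1 and Ndufs8.

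Ndufa12, an accessory subunit of the peripheral arm with the lowest difference in complex I, read 7.72, 7.38 and 7.55 in Stat2 KO hosts against 8.06, 7.83 and 8.04 in WT hosts. Every Stat2 KO-host tumour lay below every WT-host tumour, and the means of 7.55 ± 0.169 and 7.98 ± 0.128 (SD, n = 3) differed by -0.43 (SE 0.142), or 0.744 times the WT level, with an unadjusted p of 0.011 and a limma adjusted p of 0.486. A dimmer second probe set of Ndufa12 also had groups that did not overlap, with a difference of -0.23. It read 6.47, 6.53 and 6.48 against 6.67, 6.78 and 6.73. Its mean level of 6.61 and all its Stat2 KO-host values lie below the 95th percentile of the olfactory receptor genes. Ndufaf2, a paralog of Ndufa12 that holds its place while the complex is being assembled, read 5.81, 5.49 and 5.94 against 6.13, 6.10 and 6.37, again without overlap. Its difference was -0.45 (SE 0.154), or 0.731 times the WT level (unadjusted p = 0.012, limma adjusted p = 0.491), but all 6 values lie below the 95th percentile of the olfactory receptor genes.

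Ndufb8, an accessory subunit of the membrane arm, read 7.15, 7.02 and 7.13 against 7.42, 7.38 and 7.39. The WT values lay close together, no Stat2 KO-host tumour reached them, and the difference was -0.30 (SE 0.125), or 0.814 times the WT level (unadjusted p = 0.035, limma adjusted p = 0.542). Over the alternative settings the adjusted p ran from 0.105 to 0.911 for Ndufa12, from 0.198 to 0.908 for Ndufaf2 and from 0.149 to 0.966 for Ndufb8, so none of the 3 passed under any of them. Ndufa9, an accessory subunit beside the ubiquinone site, and Ndufa6, another accessory subunit, also had groups without overlap, with differences of -0.20 and -0.13. Ndufb11, a dim membrane-arm subunit, differed by -0.29 with overlapping groups (SE 0.215). The brightest subunit, Ndufc2 of the membrane arm, read 11.78 ± 0.210 and 11.81 ± 0.046, a difference of -0.027, and the dimmest, Ndufs5, differed by 0.027 (SE 0.222). Ndufc1 had the highest difference in this complex, 0.19.

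The Ndufaf genes, Ndufaf2 among them, encode proteins that help build complex I and are not part of the finished enzyme. These 8 genes had 5 lower and 3 higher, with a median of -0.13, and -0.041 and -0.048 after quantile and loess scaling; it was -0.066 without replicate 2 of the Stat2 KO hosts, -0.067 without replicate 2 of the WT hosts and 0.0040 when dim genes were left out. Against equally bright genes, 4 lay below and 4 above. Ndufaf6 read 6.14, 5.93 and 6.24 against 6.25, 6.42 and 6.36, without overlap, a difference of -0.24 (limma adjusted p = 0.627). All values of Ndufaf6 and of Ndufaf5 lie below the 95th percentile of the olfactory receptor genes. Ndufaf5, a factor that modifies a core subunit, and Ndufaf8, its partner protein, differed by -0.21 and -0.22 with overlapping groups, and Ndufaf3 by 0.15. The median deviation of these 8 genes from their own means was -0.28 in replicate 2 of the Stat2 KO hosts, and between -0.043 and 0.12 in the other 5 tumours. Melanocyte markers were lowest in the same tumour, with a mean log2 level of 10.16, against 10.49 to 10.85 in the others; their part in the result was not tested.

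Complex II, succinate dehydrogenase, is built from 4 nuclear genes and is also an enzyme of the TCA cycle. Sdha, the flavoprotein that oxidizes succinate, read 9.75, 9.70 and 9.64 in Stat2 KO hosts against 9.76, 9.77 and 9.70 in WT hosts, a difference of -0.048. Sdhb, the iron-sulphur subunit, read 8.90, 8.87 and 8.93 against 8.88, 8.91 and 8.96, a difference of -0.015 with a 95% interval from -0.29 to 0.26. The 6 tumours lay within a narrow range for both genes. Sdhc and Sdhd, the membrane anchors, differed by -0.057 and 0.13, and the WT-host values of Sdhd (8.27, 8.45 and 8.78) spanned those of the Stat2 KO hosts (8.74, 8.55 and 8.60). All 4 genes lay above their equally bright genes, by a median of 0.076. The complex's own median was -0.031, and 0.073 and 0.079 after quantile and loess scaling and 0.0061 without replicate 3 of the Stat2 KO hosts.

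Complex III, the cytochrome bc1 complex, had 3 genes lower and 4 higher and a median of 0.0068, which was -0.059 after median centring of each array and between -0.014 and -0.0020 without any 1 of the Stat2 KO hosts or replicate 1 of the WT hosts. Uqcrc1 and Uqcrc2, the core proteins, differed by 0.040 and -0.076. Uqcrfs1, the Rieske iron-sulphur protein, read 7.28, 7.48 and 7.28 against 7.28, 7.53 and 7.37, a difference of -0.046. The remaining named subunits were Uqcrb at 0.032, Uqcrh, the hinge protein, at 0.11, and Uqcr11 at -0.16. For all 7 genes the groups overlapped and the 95% interval lay within ±0.5, and 6 of the 7 lay above their equally bright genes.

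Complex IV, cytochrome c oxidase, had 10 genes lower and 9 higher and a median of -0.00016, which was 0.053 after loess scaling and -0.066 after median centring, and ran from -0.049 (without replicate 2 of the Stat2 KO hosts) to 0.024 (without replicate 2 of the WT hosts) as single tumours were left out. Cox5b, a nuclear subunit on the matrix side, read 9.36, 9.39 and 9.17 in Stat2 KO hosts against 9.65, 9.50 and 9.43 in WT hosts; the groups did not overlap, and the difference was -0.22 (SE 0.136, limma adjusted p = 0.641). A second, much dimmer probe set of Cox5b had overlapping groups, a difference of -0.075. Cox7a2l, a Cox7a relative that links complexes III and IV into supercomplexes, read 6.85, 6.90 and 7.09 against 7.45, 7.00 and 7.39, a difference of -0.33 (SE 0.153, limma adjusted p = 0.568) with groups that overlap. Cox7a2, the widespread Cox7a form, read 10.65, 10.49 and 10.67 against 10.24, 10.31 and 10.52. Among genes above the 95th percentile of the olfactory receptors it had the highest difference, 0.25 (SE 0.138, limma adjusted p = 0.621), with 1 WT-host tumour inside the range of the Stat2 KO hosts. The differences of Cox7a2 and Cox7a2l lay on opposite sides of 0, and the contrast between them was not tested. Cox7b, the brightest gene of the complex, read 11.43 ± 0.048 and 11.43 ± 0.078.

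Several complex IV subunits exist in forms that belong to particular tissues. Of the heart and muscle forms, Cox6a2 read 6.94 ± 0.234 and 6.92 ± 0.235 (difference 0.025), Cox7a1 6.87 ± 0.221 and 6.65 ± 0.271 (difference 0.22, groups overlapping), and Cox8b 5.05 ± 0.140 and 4.80 ± 0.073. Cox8b was the only gene of the 89 without overlap on the higher side, at 4.90, 5.17 and 5.09 against 4.74, 4.78 and 4.89, but all of its values lie below the median olfactory receptor gene (5.21). The difference was 0.25, and equally bright genes had a median of 0.11. The skeletal muscle markers were dim as well: all 14 lay below the 95th percentile of the olfactory receptors, with mean log2 levels from 5.87 to 6.17 in Stat2 KO hosts and from 5.88 to 5.98 in WT hosts. Their part in the result was not tested.

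The testis forms Cox6b2, Cox7b2 and Cox8c had differences of 0.22, 0.22 and 0.013, with overlapping groups and levels in the dim range. Cox4i2, a form found in lung and used in low oxygen, read 6.52 ± 0.174 and 6.60 ± 0.188, a difference of -0.074. Ndufa4l2, a relative of Ndufa4 known as a target of hypoxia-inducible factor, read 5.74, 6.07 and 5.55 against 5.76, 5.90 and 6.07, a difference of -0.12 with overlapping groups. The widespread partners Cox4i1, Cox6a1, Cox6b1, Cox8a and Ndufa4 differed by -0.12, -0.025, 0.029, 0.11 and -0.18, all with overlapping groups. For neither hypoxia-linked form were the hosts separated, and the 95% intervals ran from -0.40 to 0.25 for Cox4i2 and from -0.47 to 0.23 for Ndufa4l2. The mean levels of both lie below the 95th percentile of the olfactory receptor genes, so these intervals describe dim probe sets.

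Complex V, the ATP synthase, held the lowest difference of the whole set. Atp5d, the delta subunit of the rotating central stalk, read 8.67, 8.57 and 8.33 in Stat2 KO hosts against 9.10, 9.39 and 8.77 in WT hosts. The groups did not overlap, and the means of 8.52 ± 0.175 and 9.09 ± 0.308 (SD, n = 3) differed by -0.56 (SE 0.171, 95% interval -0.94 to -0.19), or 0.677 times the WT level. The unadjusted p was 0.0063 and the limma adjusted p 0.462. The second probe set of Atp5d, only slightly dimmer, read 8.64, 8.41 and 8.16 against 8.52, 8.75 and 8.39, with overlapping groups and a difference of -0.15, so the 2 probe sets disagreed in size. With array weights Atp5d passed, at -0.79 and a limma adjusted p of 0.037; the adjusted p ran from 0.037 to 0.908 over all settings.

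All 16 other genes of the ATP synthase had differences closer to 0. The catalytic beta subunit Atp5b, the brightest of the 89 genes, read 12.20, 11.97 and 12.08 against 12.27, 12.29 and 12.03, a difference of -0.11 with overlap. Atp5a1, the alpha subunit, read 10.72, 10.61 and 10.63 against 10.71, 10.62 and 10.60, a difference of 0.014 with a 95% interval from -0.27 to 0.29. Atp5c1, the gamma subunit of the central stalk to which the delta subunit binds, differed by 0.17, and Atp5e, the epsilon subunit beside it, by -0.094, so the 3 stalk genes did not lie on 1 side of 0. Atp5mpl, a small membrane subunit, read 9.01, 9.19 and 9.21 against 9.55, 9.51 and 9.26, without overlap, a difference of -0.30 (SE 0.139, limma adjusted p = 0.568). Of the 3 genes for the membrane ring subunit c, Atp5g1 differed by 0.23, Atp5g2 by -0.0097 and Atp5g3 by 0.013, all with overlap, and the first of these was dim. The 17 genes had 9 lower and 8 higher, with a median of -0.0097, which was 0.049 and 0.060 after quantile and loess scaling, -0.076 after median centring, -0.067 without replicate 1 of the Stat2 KO hosts, 0.038 without their replicate 2 and -0.053 without replicate 1 of the WT hosts.

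**Figure D3:**
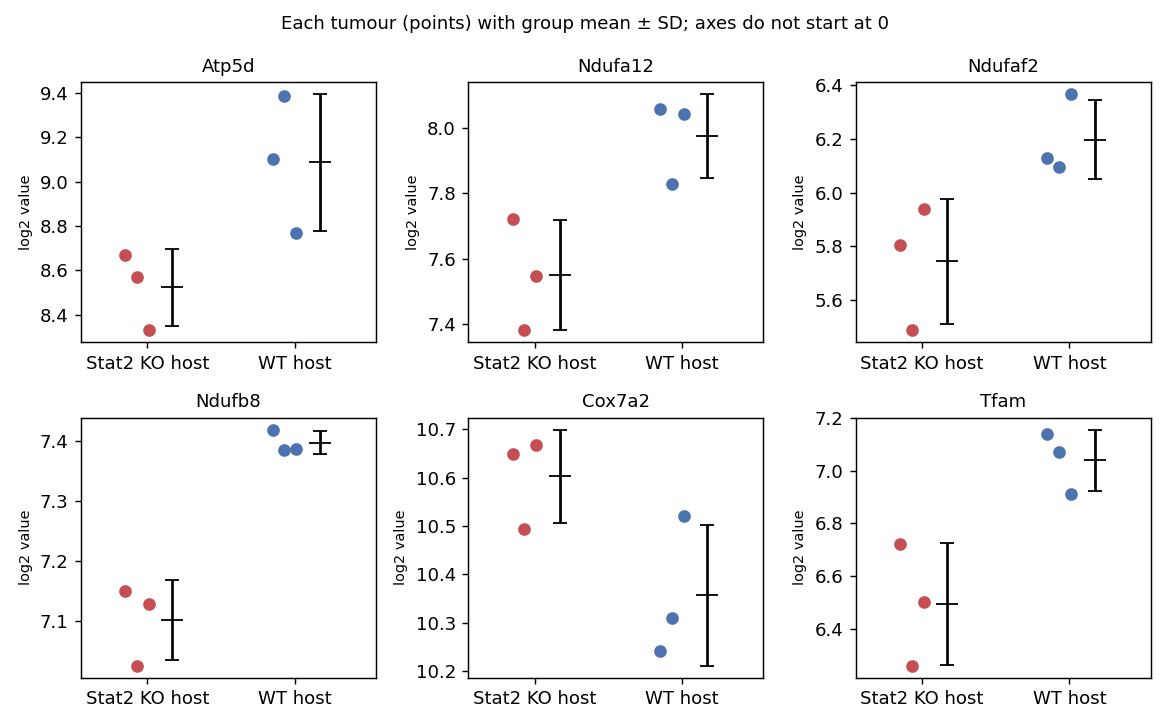
Log2 value of each tumour (points) by host for 6 genes, with the group mean and SD (bars, n = 3); the vertical axes do not start at 0. For Atp5d, Ndufa12, Ndufaf2, Ndufb8 and Tfam every Stat2 KO-host tumour lies below every WT-host tumour, and for Cox7a2 the groups overlap.

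The tumours of 1 host genotype differed among themselves across the whole set of genes. The median deviation over the 89 genes was 0.055, -0.064 and -0.030 for the 3 tumours of Stat2 KO hosts, against -0.025, 0.048 and 0.013 in the WT hosts, so the groups overlapped. Complex I showed the same order among the Stat2 KO hosts, at 0.080, -0.12 and -0.084. After subtraction of equally bright genes, the same medians became -0.0064, 0.081 and -0.0017 for Stat2 KO hosts, against -0.095, 0.0091 and 0.038 in WT hosts, and replicate 2 of the Stat2 KO hosts went from the lowest to the highest tumour.

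**Figure D4:**
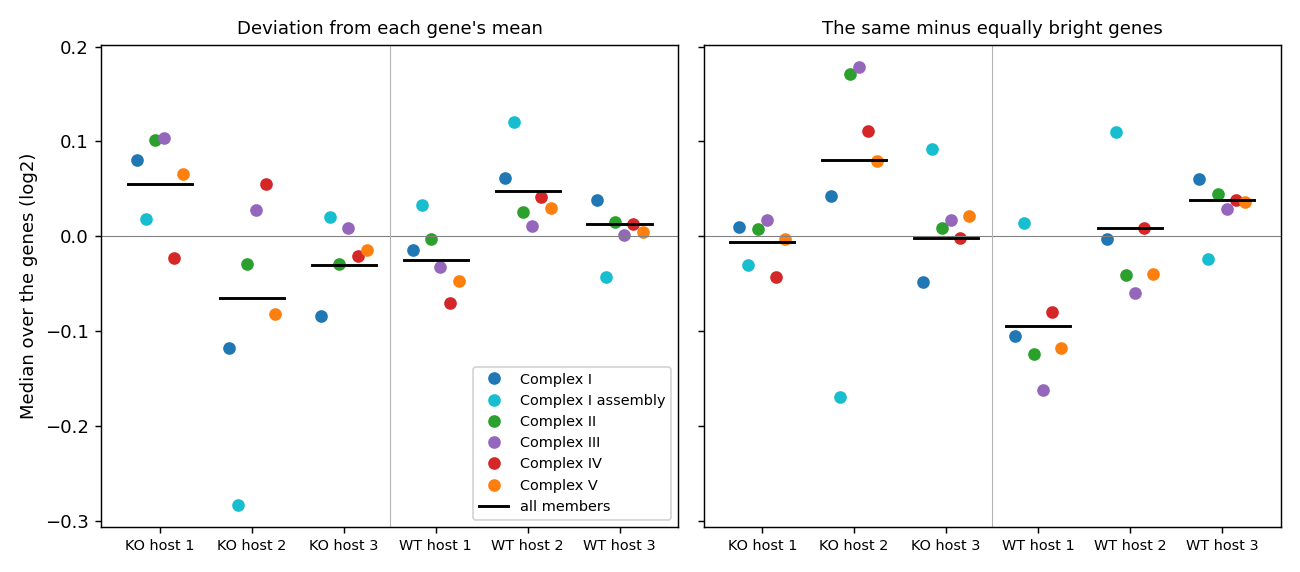
Median over genes of the deviation from each gene's mean (log2, vertical axis) in each tumour, by complex (points) and over all 89 genes (bars); the left panel is as deposited, and the right panel has equally bright genes subtracted. The bars run from -0.064 to 0.055 on the left and from -0.095 to 0.081 on the right, and the 2 host groups overlap in both.

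Genes around the respiratory chain were described from lists of their own, none of which had a member past the threshold over all genes. The mitochondrial ribosome, which translates the subunits encoded by mitochondrial DNA, had 56 of 71 genes lower and 15 higher, with a median of -0.13 (-0.053 and -0.060 after quantile and loess scaling, and -0.075 without replicate 2 of the Stat2 KO hosts); 48 lay below their equally bright genes, by a median of -0.064 over the list. In it 5 of 71 genes had an unadjusted p under 0.05, all lower. Over all genes 3.48% were lower at that threshold and 8.82% passed it in either direction. These shares are not matched for level, and genes as bright as the list had a median of -0.10. Among the 5 were Mrpl42, at 7.54, 6.98 and 7.00 against 7.63, 7.80 and 7.56, and Mrpl32 and Mrps9, with differences of -0.62 and -0.37. The mean level of Mrpl32 lies below the 95th percentile of the olfactory receptor genes. The TCA cycle, measured for 16 of 17 genes, had 12 lower and 4 higher, with a median of -0.062 that turned to 0.023 and 0.028 after quantile and loess scaling and to 0.045 without replicate 2 of the Stat2 KO hosts, and was -0.17 without their replicate 1; against equally bright genes 5 lay below and 11 above. Cs, citrate synthase, differed by -0.27, and Dld and Dlst, subunits of the 2-oxoglutarate dehydrogenase complex, by -0.28 and -0.18, all with overlap. Of 39 measured assembly factors and partners outside the symbol rule (42 listed), 26 were lower and 13 higher, with a median of -0.078 (-0.0032 and -0.0058 after quantile and loess scaling, -0.015 without replicate 2 of the Stat2 KO hosts, and -0.044 and -0.020 without replicates 1 and 2 of the WT hosts). Against equally bright genes 18 lay below and 21 above. An unadjusted p under 0.05 was found for 2 of the 39, both lower. Over all genes 3.48% were lower at that threshold and 8.82% passed it in either direction. Here too the shares are not matched for level, and equally bright genes had a median of -0.088. The 2 genes were Nubpl, which supplies iron-sulphur clusters to complex I, at -0.44, and Cox16, a complex IV assembly factor, at -0.49. Both had overlapping groups.

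The regulators of mitochondrial biogenesis and of mitochondrial DNA expression had 17 of 21 measured genes lower and 4 higher (22 listed), with a median of -0.14. It was -0.057 and -0.058 after quantile and loess scaling, -0.056 without replicate 2 of the Stat2 KO hosts and -0.076 without replicate 1 of the WT hosts; against equally bright genes 15 lay below and 6 above. Tfam, the factor that packages mitochondrial DNA and starts its transcription, read 6.72, 6.26 and 6.50 in Stat2 KO hosts against 7.14, 7.07 and 6.91 in WT hosts. The Stat2 KO-host values all lie below the 95th percentile of the olfactory receptor genes, and the WT-host values lie above it. The groups did not overlap, and the difference was -0.54 (SE 0.149, 95% interval -0.87 to -0.22), with an unadjusted p of 0.0033 and a limma adjusted p of 0.460. Equally bright genes had a median of -0.0016. With array weights Tfam passed, at -0.55 and an adjusted p of 0.047 by limma; over all settings the adjusted p ran from 0.047 to 0.887. Polrmt, the mitochondrial RNA polymerase, and Mterf3, a regulator of mitochondrial transcription, differed by -0.33 and -0.29, the second without overlap. All values of Mterf3 lie below the 95th percentile of the olfactory receptor genes.

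Markers of the cells in these tumours were set beside these values. The melanocyte markers had 10 of 12 lower, with a median of -0.12. It became 0.042 without replicate 2 of the Stat2 KO hosts and ran from -0.25 to -0.077 without any other single tumour. Against equally bright genes, whose median was -0.084, 7 melanocyte markers lay below and 5 above, with a median gap of -0.046. Of the macrophage markers 10 of 11 measured genes were lower, with a median of -0.32, mean log2 levels from 6.19 to 6.45 in Stat2 KO hosts and from 6.55 to 6.80 in WT hosts. An unadjusted p under 0.05 was found for 5 of the 11, all lower, against 3.48% of all genes, and 4 passed the adjusted threshold with array weights. Fibroblast markers had 9 of 10 lower, a median of -0.35, and mean levels from 6.42 to 6.85 against 6.85 to 7.17. Without replicate 2 of the Stat2 KO hosts the fibroblast median was -0.14. Below their equally bright genes lay 10 of 11 macrophage and 10 of 10 fibroblast markers. Of the other marker lists, 7 of 8 T cell, 5 of 8 endothelial, 4 of 7 adipocyte, 4 of 5 keratinocyte, 1 of 1 red cell and 10 of 14 skeletal muscle genes were higher; against equally bright genes 4, 6, 2, 3, 1 and 9 of them lay above. Many of these markers were dim. Mean levels lay below the 95th percentile of the olfactory receptor genes for 7 of 11 macrophage and 4 of 10 fibroblast markers. The same held for 8 of 8 T cell, 4 of 8 endothelial, 6 of 7 adipocyte, 5 of 5 keratinocyte and 1 of 1 red cell markers. The T cell median of 0.12 was 0.0085 and 0.0030 after quantile and loess scaling, and the adipocyte median of 0.0076 turned to -0.070 and -0.064. Their part in the values of Atp5d, Ndufa12, Tfam or any other gene was not tested, and in these whole tumours fewer cells of a type and less RNA per cell cannot be told apart.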

How the data were processed

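Total RNA of 6 tumours was measured on 1 Affymetrix array each. What the authors deposited is 1 log2 level for each probe set and array; the submitters' processing notes name RMA and Affymetrix Expression Console 1.3.1. No genome build is given in the sources used here. Of 41345 probe sets, 23521 name 1 gene, 1814 several and 16010 none in the platform annotation. Of the first kind, 23328 probe sets have a gene identifier found in RefSeq, and 0 symbols changed. Each gene took its brightest single-gene probe set, with no filter on dim genes, and 9 of the members had 2. Close paralogs can share signal. Differences (Stat2 KO host minus WT host) were fitted over 22180 genes with limma 3.58.1 in R 4.3.3 (lmFit, eBayes with trend, two-sided, Benjamini-Hochberg at 0.05; 4 residual and 8.139 prior degrees of freedom), a procedure tested on simulated data. Equally bright genes were the 500 nearest in mean level, with 200 and 1000 as alternatives. Promoter sequences are from RefSeq, GRCm38.p6.

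The members, the lists and the naming rule were chosen with earlier results of these data known. The genes named were, in each complex and among the Ndufaf genes, up to 5 with the smallest p, the brightest and the dimmest, all Sdh genes, the redox core, the tissue isoforms with their partners, and up to 3 genes of each other list. Ndufa6, Ndufc1, Atp5e, Atp5g2 and Atp5g3 were named after their values were seen, as was the second probe set of each gene described. Alternatives were other scalings, a level filter, the mean of probe sets, other variance settings, array weights, a replicate block and leaving out each tumour.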

Additional observations from a re-analysis of the deposited data

How the results depend on the processing

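Of 709 values of the 48 named members over the alternatives, 690 kept their side of the threshold and, where the reported interval covered 0, moved by less than a replicate SD, 18 moved further and 1 newly passed (Atp5d with array weights). The sign was the other one in 70 of the 709, from 19 members whose reported differences had intervals covering 0; it did not turn for Atp5d, Ndufa12, Ndufaf2 or Ndufb8. The genes called, 2 of all, numbered 0 after quantile and 1 after loess scaling, 1 without the trend, 257 with array weights, 3 with the replicate block and 0 to 17 when tumours were left out in turn (17 without WT host replicate 3). At an unadjusted p under 0.05, the 1956 genes became 938 among bright genes only, where fewer genes were tested. They became 5004 with array weights and 1177 to 3260 with a tumour left out. The count was 3260 without Stat2 KO host replicate 1 and 1260 without replicate 3 of those hosts. It was 1197 and 1177 without WT host replicates 1 and 2. Members called were 1 with array weights and 0 otherwise; at an unadjusted p the 4 members became 7 after median centring, 12 with array weights and 3 to 5 with a tumour left out. The members' median, -0.041, was 0.038 with quantile, -0.11 with median centring and 0.050 with loess scaling, with 73 genes lower under centring; the sign turned for 22, 20 and 25 members, while the median of all genes was 0.0027, -0.045 and 0.00094. By complex, the medians after loess were 0.032 (I), 0.079 (II), 0.088 (III), 0.053 (IV) and 0.060 (V), after quantile scaling 0.073 (II) and 0.048 (III), and after centring -0.098 (II), -0.059 (III), -0.066 (IV) and -0.076 (V); the cause was not tested. With a tumour left out, the medians ran from -0.075 (without Stat2 KO host replicate 1) to -0.017 (without WT host replicate 2) over all members, from -0.14 to -0.023 for complex I, -0.16 to -0.066 for its assembly factors, -0.045 to 0.0061 (II), -0.014 to 0.023 (III), -0.049 to 0.024 (IV) and -0.067 to 0.038 (V). Members below their equally bright genes, 32, were 33 with 200 or 1000 neighbours. Deviations from host means correlated at 0.240, 0.079 and 0.030 for the same replicate number, and from -0.289 to 0.205 for different numbers. With means of only 3 tumours, these values cannot decide whether the numbers pair tumours. No label pairs them, so the numbers were not taken as pairs. With the replicate block 0 members passed and 5 had an unadjusted p under 0.05, and over all genes 1956 became 2484. With 3 tumours a host, the 95% interval stayed within ±0.5 log2 units for 64 of 89 members.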
